A study of Mus musculus with 12 samples.

Results

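The response of p53-null 3T3 fibroblasts to the loss of glutamine was described from 6 of the 12 RNA-seq libraries of the series. The cells are a 3T3 line of mouse embryonic fibroblasts, cells that divide without limit in culture, and their genotype is given as p53 -/-. The line was grown in DMEM with 25 mM glucose and 2 mM L-glutamine and then held for 18 h in DMEM with 2 mM L-glutamine (complete medium, 3 libraries) or with none (glutamine-free, 3 libraries). The other 6 libraries came from a 3T3 line with wild-type p53 (WT) under the same 2 media and were used only to test where the response of the p53-null line differed. Libraries were made from 0.5 ug of Trizol-extracted total RNA with TruSeq RNA v2, a kit without strand marks. The deposited values are RPKM, reads scaled to gene length and to the reads of the library, and a gene was tested where RPKM reached 1 in at least 3 of the 6 libraries, which held for 10705 of 19439 entries. Each genotype is 1 line, so p53 status and other differences between the lines cannot be told apart. Whether the 3 libraries of a group are separate cultures is not in the labels. The p-values therefore reflect the spread from library to library alone, and that spread may be technical.

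Glutamine supplies carbon to the tricarboxylic acid (TCA) cycle after deamination to glutamate, and nitrogen to asparagine, purines, pyrimidines and other amino acids. A cell short of an amino acid accumulates uncharged transfer RNA, which activates the kinase Gcn2 (gene Eif2ak4). Gcn2 phosphorylates the translation factor eIF2alpha, general translation slows, and the transcription factor Atf4 is made and induces genes for amino acid uptake, amino acid synthesis and tRNA charging. p53, whose gene is labelled -/- in these cells, is a transcription factor that arrests growth and adjusts metabolism under stress.

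Promoter sequence is shown first for 8 genes that the results return to, because 4 of the groups described below are known targets of factors with short, recognisable binding elements. Each run is the 120 bases before the RefSeq start site, 5′ to 3′ on the strand of the gene (GRCm38.p6), with matches in capitals. Atf3 (chr1:191183334-191183453, minus strand), Nupr1 (chr7:126625471-126625590, minus) and Slc7a11 (chr3:50443614-50443733, minus) hold the core of the C/EBP-ATF response element, TGATGNAA on either strand. Hspa5 (chr2:34771970-34772089, plus) holds the endoplasmic reticulum (ER) stress element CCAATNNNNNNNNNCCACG. Actg1 (chr11:120348496-120348615, minus), Cnn2 (chr10:79988480-79988599, plus) and Dusp5 (chr19:53529025-53529144, plus) hold the CArG box bound by serum response factor, a run of A and T between CC and GG. Cdc20 (chr4:118437344-118437463, minus) holds the cell cycle homology region, TTTGAA.
Atf3: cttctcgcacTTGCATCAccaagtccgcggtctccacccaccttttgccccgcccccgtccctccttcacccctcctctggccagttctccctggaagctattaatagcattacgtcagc
Nupr1: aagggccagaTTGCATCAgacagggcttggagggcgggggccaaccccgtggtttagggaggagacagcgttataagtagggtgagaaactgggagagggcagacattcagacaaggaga
Slc7a11: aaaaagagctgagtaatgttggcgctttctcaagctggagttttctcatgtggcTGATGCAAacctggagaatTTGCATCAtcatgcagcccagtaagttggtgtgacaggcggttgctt
Hspa5: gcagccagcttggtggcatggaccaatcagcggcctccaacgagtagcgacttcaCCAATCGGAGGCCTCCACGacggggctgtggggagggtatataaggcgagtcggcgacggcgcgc
Actg1: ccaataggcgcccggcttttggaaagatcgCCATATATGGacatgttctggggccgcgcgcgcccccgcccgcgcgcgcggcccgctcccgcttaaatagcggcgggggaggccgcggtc
Cnn2: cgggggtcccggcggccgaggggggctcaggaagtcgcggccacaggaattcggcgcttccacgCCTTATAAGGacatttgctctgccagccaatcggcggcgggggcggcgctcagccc
Dusp5: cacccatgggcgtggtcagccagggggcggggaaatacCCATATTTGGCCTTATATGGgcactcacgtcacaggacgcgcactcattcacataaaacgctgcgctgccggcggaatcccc
Cdc20: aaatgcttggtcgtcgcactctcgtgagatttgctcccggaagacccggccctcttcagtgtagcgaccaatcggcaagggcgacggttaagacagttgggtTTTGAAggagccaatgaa
The matches begin 110 bases before the start site in both Atf3 and Nupr1, at 66 and 47 bases in Slc7a11, at 65 in Hspa5, at 90 in Actg1, at 56 in Cnn2, at 82 and 72 in Dusp5 and at 18 in Cdc20. Atf3, Nupr1, Slc7a11 and Hspa5 rose without glutamine and Cdc20 fell. Of the 3 genes with a CArG box, Actg1 and Cnn2 fell and Dusp5 rose.

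Over whole groups, windows from 250 bases before to 50 bases after the start site were searched on both strands, with no pattern contained in another. Windows were matched for 8329 of the 10705 tested genes, 10627 windows in all. The C/EBP-ATF core was in 2.04% of these windows, in 7.43% of the 148 windows of genes at least 2-fold higher without glutamine and in 0.990% of the 202 windows of genes at least 2-fold lower. It was in 30.8% of the 13 windows of the Atf4-circuit transcription factors and in 36.8% of the 19 windows of the other Atf4 target genes. The ER stress element was in 0.141% of windows of tested genes and in 31.8% of the 22 windows of ER chaperone genes. The CArG box was in 1.25% of windows of tested genes and in 30.4% of the 23 windows of the contractile genes, and TTTGAA was in 11.6% and in 70.5% of the 44 windows of mitosis genes. The E2F site TTTNGCGC was in 2.62% of windows of tested genes and in 24.5% of the 49 windows of DNA replication genes. The AP-1 site TGANTCA was in 4.71% of windows of tested genes and in none of the 10 windows of AP-1 and small Maf genes, and the sterol element TCACNCCAC in 1.10% and in 1 of the 21 windows of sterol genes. Between the genes at least 2-fold higher and those at least 2-fold lower, the CArG box was in 4.05% and 2.48% of windows, the AP-1 site in 4.05% and 8.42%, TTTGAA in 10.8% and 10.4%, the E2F site in 2.70% and 1.49%, the sterol element in 1.35% and 0.495% and the ER stress element in none of either. Windows of 1 gene can overlap and hold the same match. Counted by gene, the CArG box was in 4 of 117 genes of the higher set and 5 of 165 of the lower. Most of the groups named are lists of known targets and the 2-fold sets were chosen by this comparison, so the shares are descriptions and no test of a factor.

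The RPKM of a library summed to 284426 to 292236, and the 10 highest entries held 6.61 to 6.70% of that sum in complete medium and 4.69 to 4.95% without glutamine. Across tested genes, libraries of 1 medium correlated at r = 0.998 to 0.999 and libraries of different media at 0.956 to 0.957, given as a description because genes of 1 library are not independent of each other. Trp53 RNA itself was read at 27.9, 29.0 and 29.6 RPKM in complete medium and 33.9, 34.6 and 35.2 RPKM without glutamine, and these values do not tell which part of the transcript the reads came from. The arginine carrier Slc7a3, named in the title of the series, was at 0.904, 1.17 and 1.10 RPKM in complete medium and 0.432, 0.541 and 0.402 RPKM without glutamine and did not pass the filter. Rn45s, the ribosomal RNA precursor, was at 3137 ± 135 and 2291 ± 387 RPKM in complete and glutamine-free medium, and the nuclear RNA Neat1 at 21.6 ± 0.19 and 14.6 ± 0.12 RPKM. Of 14 fibroblast markers 12 were tested, Vim being the highest at 1730.1 RPKM in complete medium, while Thy1 and Fap lay below the filter at 0.339 and 0.00293 RPKM. Mesothelial markers were also read (Msln 149, Wt1 7.65 and Upk3b 4.79 RPKM in complete medium), with the epithelial Epcam and Cdh1 at 0.00384 and 0.0630 RPKM, and the blood cell genes Ptprc and Lyz2 at 0 and 0.0221 RPKM. The summed RPKM of the 14 epithelial and mesothelial markers found was 243 in each complete library and 154 to 157 in the glutamine-free libraries, that of the 14 fibroblast markers was 2569 to 2608 and 1554 to 1581, and that of the 9 blood cell markers found was 8.89 to 9.56 and 4.57 to 5.07. For the 9 endothelial markers found it was 3.17 to 3.61 and 2.28 to 2.70, for the 12 of adipocytes, cartilage and bone 38.2 to 39.4 and 36.9 to 37.7, and for the 12 of muscle and nerve 9.12 to 9.32 and 11.3 to 12.4. The last sum was higher without glutamine and the other 5 were lower, and their part in the results below was not tested. Vim made up most of the fibroblast sum in complete medium. By the test given below, 4 of the 12 tested fibroblast markers rose and 8 fell. That is 33.3% and 66.7%, beside 52.7% and 32.9% of all tested genes. Of 6 tested epithelial and mesothelial markers 1 rose and 5 fell, and that sum also holds keratin genes whose values are not given here. Of 2 tested blood cell markers 1 rose and 1 fell. In libraries of whole cultures, fewer cells of a type and less RNA per cell cannot be told apart.

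Most tested genes differed between the media by small amounts. Without glutamine 5640 genes rose and 3518 fell at an adjusted p under 0.05 (limma on log2(RPKM + 1), Benjamini-Hochberg over all tested genes), which is 85.5% of the 10705 genes called, 52.7% higher and 32.9% lower. The median absolute log2 change was 0.28 and the median SE 0.028, and 2381 of the 9158 called genes (26.0%) changed by less than 0.2 on the log2 scale. At least a 2-fold change was called for 378 genes, 3.53% of those tested, of which 146 rose (1.36%) and 232 fell (2.17%), and in all 378 the 3 libraries of 1 medium lay apart from the 3 of the other. These counts depend on the scale: the 146 became 264 with a pseudocount of 0.1 and 90 with median centring, and the 232 became 407 with a pseudocount of 0.1 and 128 among genes with a mean of at least 5 RPKM. Over all tested genes the libraries of the media did not overlap, with glutamine-free higher, in 53% and, with glutamine-free lower, in 33.2%. Remarks below that the libraries of a gene lay apart are to be read beside these shares. Most genes so described were picked for large changes. Counts of list members that rose or fell are to be read beside the 52.7% and 32.9% of all tested genes. Counts of members at least 2-fold higher or lower are to be read beside 1.36% and 2.17%. The median log2 change over all tested genes was 0.11, and with each library centred on its own median the higher share of called genes moved from 61.6% to 47.6%, so small changes of 1 sign are read against that shift. The direction of change varied with level: the median was 0.18 for the 2169 genes between 20 and 50 RPKM and -0.12 for the 409 genes at or above 100 RPKM. Among the most abundant RNAs, those of the elongation factor Eef1a1 (3987 ± 41 to 2612 ± 6.3 RPKM; -0.10 and not called with quantile normalization), the ferritin light chain Ftl1 (1746 ± 8.0 to 958 ± 18 RPKM), vimentin (Vim, 1730.1 ± 10 to 770.4 ± 13 RPKM) and the chaperone Hspa8 (1654 ± 6.2 to 961 ± 10 RPKM) fell; values with ± are means and SD over the 3 libraries of a medium.

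**Figure D1:**
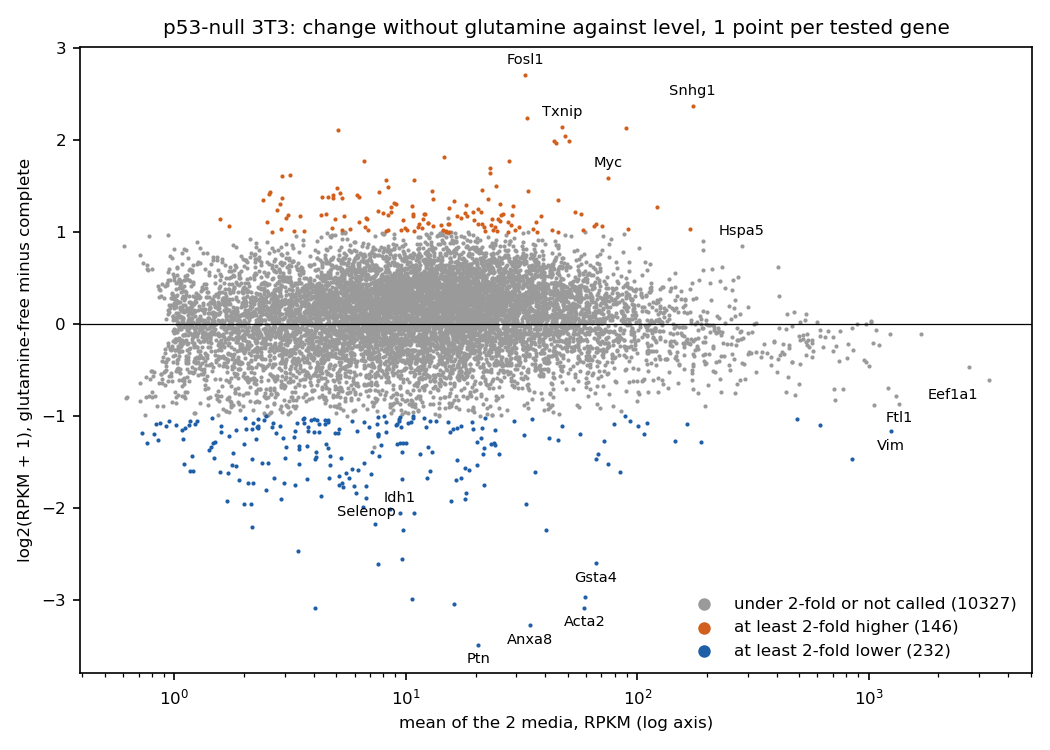
Log2 change of each tested gene (glutamine-free minus complete, vertical axis) against its mean RPKM over both media (horizontal log axis); orange points are the 146 genes at least 2-fold higher without glutamine, blue points the 232 genes at least 2-fold lower and grey points the rest. Of the labelled genes Fosl1, Txnip and Snhg1 lie highest and Ptn, Anxa8 and Acta2 lowest, and the labelled RNAs near or above 1000 RPKM lie below 0.

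The 12 largest rises, under the naming rule given with the processing, brought together stress factors, noncoding RNAs and a few signalling genes. Fosl1, an AP-1 transcription factor gene (chr19:5447547-5455946, protein coding), was at 7.33, 8.47 and 8.24 RPKM in complete medium and 54.9, 58.0 and 59.7 RPKM without glutamine (log2 change 2.70, SE 0.048, adjusted p = 4.1e-10). Txnip, whose protein binds thioredoxin and limits glucose uptake (chr3:96557957-96561883), was at 16.8, 17.5 and 16.4 RPKM in complete medium and 77.5, 78.7 and 77.2 RPKM without glutamine (log2 change 2.14, SE 0.023, adjusted p = 4.9e-11). Gadd45a, a growth arrest and DNA damage gene, was at 19.1, 18.8 and 17.4 RPKM in complete medium and 79.0, 77.3 and 79.8 RPKM without glutamine (log2 change 2.04, SE 0.032, adjusted p = 2.3e-10). In each of these genes the lowest glutamine-free library stood at more than 4 times the highest complete one. For Fosl1, 57.2% of the annotated exon length lies under Ccdc85b on the other strand, so reads of both cannot be told apart, and the entry for Ccdc85b was at 3.90 ± 0.18 and 4.97 ± 0.11 RPKM. The other rises were of the noncoding RNAs Snhg1, Zfas1 and Snhg12, the stress genes Nupr1, Ppp1r15a, Atf3 and Gadd45b, the phospholipase-like gene Plcxd2 (1.29 ± 0.086 to 8.91 ± 0.26 RPKM) and the choline kinase gene Chka (10.3 ± 0.34 to 35.7 ± 1.1 RPKM). Those not given values here are described with their groups below.

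The 12 largest falls, under the same naming rule, were of secreted and membrane proteins, detoxifying enzymes and the actin of smooth muscle. Ptn, the gene of the secreted growth factor pleiotrophin (chr6:36714929-36810220), was at 38.6, 39.0 and 38.3 RPKM in complete medium and 2.41, 2.48 and 2.72 RPKM without glutamine (log2 change -3.49, SE 0.033, adjusted p = 2.9e-11). Anxa8, a calcium-binding annexin gene, was at 62.2, 63.1 and 63.9 RPKM in complete medium and 5.14, 5.79 and 5.94 RPKM without glutamine (log2 change -3.27, SE 0.041, adjusted p = 8.3e-11). Acta2, the smooth muscle alpha actin gene (chr19:34241090-34255590), was at 105, 107 and 107 RPKM in complete medium and 11.5, 11.4 and 12.2 RPKM without glutamine (log2 change -3.08, SE 0.024, adjusted p = 1.7e-11). The complete libraries were high and tightly grouped in all 3 genes, and each glutamine-free library held under 10% of their level in Ptn and Anxa8 and little more in Acta2. The tetraspanin gene Tspan8 fell from 29.6 ± 0.66 to 2.70 ± 0.15 RPKM and the water channel gene Aqp1 from 4.22 ± 0.29 to 0.129 ± 0.0086 RPKM. The protease inhibitor gene Serpinb9b fell from 67.0 ± 0.44 to 13.5 ± 0.59 RPKM, and the chemokine gene Cxcl15 from 8.01 ± 0.31 to 0.0645 ± 0.024 RPKM. The remaining falls, of Gsta1, Gsta4, Mgst3, Ccl2 and Ccl7, are taken up with the redox and chemokine genes. On the log2(RPKM + 1) scale the fall of Cxcl15, Aqp1 and Ccl7 is understated, because their glutamine-free values lie under 1 RPKM.

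**Figure D2:**
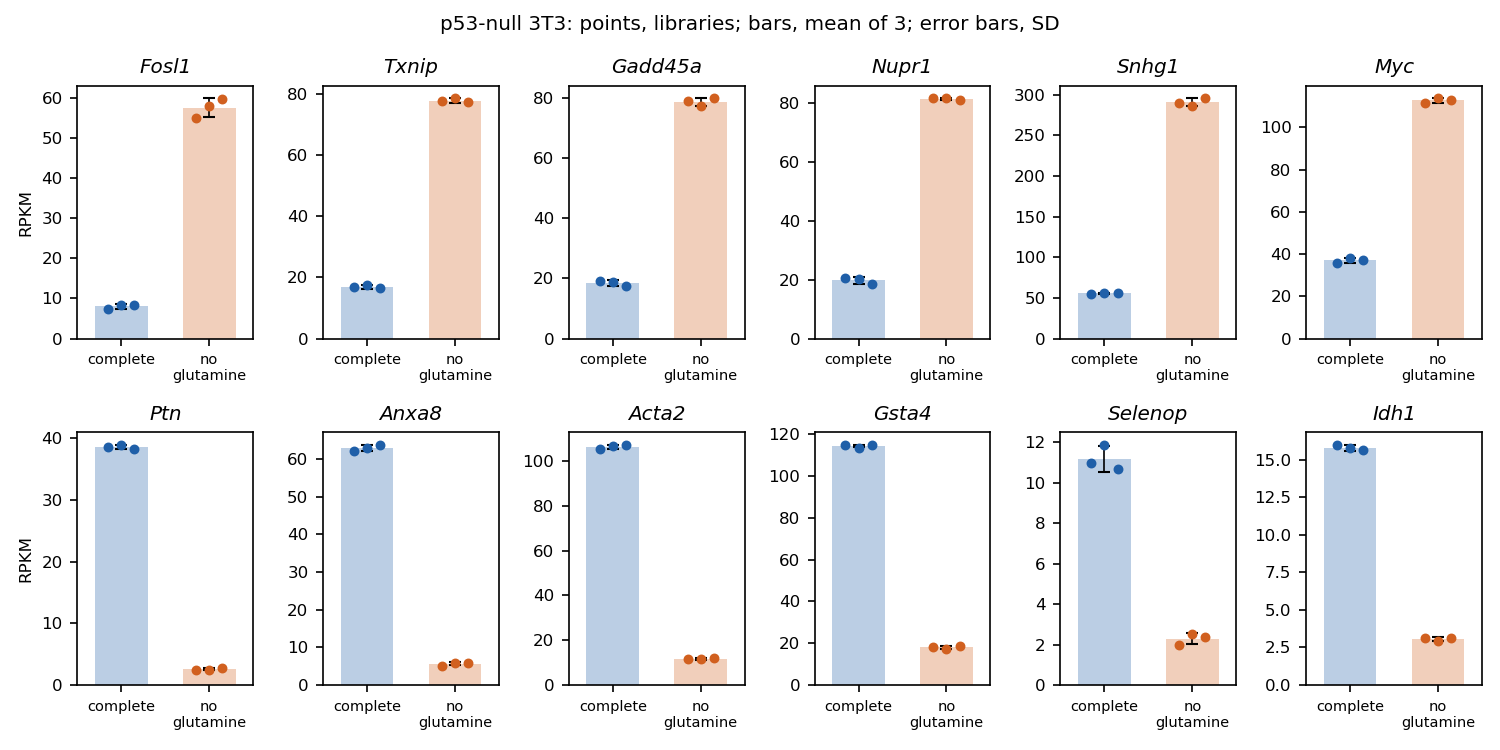
RPKM of 6 genes that rose and 6 that fell without glutamine in the p53-null line; points are the 3 libraries of each medium, bars their mean and error bars the SD, and every axis starts at 0. In each panel the 3 points of 1 medium stand apart from the 3 of the other. Most of these genes were chosen by a rule that required this. Over all tested genes it held for 53% with glutamine-free higher and 33.2% with glutamine-free lower.

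Genes of the amino acid response rose by moderate amounts. Of the 11 tested transcription factors of the Atf4 circuit, 9 rose and 1 fell (median log2 change 0.49, against 52.7% higher and a median of 0.11 over all tested genes). Atf4 itself, the factor that directs the response, was at 209, 207 and 203 RPKM in complete medium and 266, 270.2 and 275 RPKM without glutamine (log2 change 0.39, SE 0.017, adjusted p = 4.4e-08). Its target Atf3 was at 6.07, 5.75 and 5.99 RPKM in complete medium and 23.7, 23.1 and 23.4 RPKM without glutamine (log2 change 1.81, SE 0.024, adjusted p = 1.3e-10), and the stress-induced chromatin protein gene Nupr1 at 20.6, 20.2 and 18.6 RPKM in complete medium and 81.8, 81.7 and 81.3 RPKM without glutamine (log2 change 1.99, SE 0.034, adjusted p = 3.1e-10). Both genes were low in every complete library and about 4 times as high in every glutamine-free one. Ddit3, which encodes the pro-apoptotic factor Chop, rose from 42.1 ± 0.84 to 90.2 ± 0.91 RPKM and Trib3, a pseudokinase that restrains Atf4, from 45.1 ± 0.60 to 95.3 ± 0.55 RPKM. Cebpd was the member that fell (1.22 ± 0.10 to 0.853 ± 0.10 RPKM).

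Upstream of Atf4 the eIF2alpha kinase genes moved little while a phosphatase subunit rose. The kinase genes Eif2ak4 (17.9 ± 0.21 to 16.8 ± 0.53 RPKM), Eif2ak1 (18.99 ± 0.39 to 20.9 ± 0.20 RPKM) and Eif2ak2 (16.6 ± 0.29 to 17.5 ± 0.34 RPKM) changed by under 0.2 on the log2 scale, and the sign turned with quantile normalization for Eif2ak1 (-0.03) and Eif2ak2 (-0.07). Impact, whose product inhibits Gcn2, fell from 54.1 ± 0.61 to 28.0 ± 0.45 RPKM. Ppp1r15a, the inducible subunit that directs a phosphatase to eIF2alpha, was at 17.2, 17.9 and 17.5 RPKM in complete medium and 69.2, 71.7 and 73.0 RPKM without glutamine (log2 change 1.96, SE 0.023, adjusted p = 6.8e-11), high in all 3 glutamine-free libraries. Its constitutive counterpart Ppp1r15b rose from 22 ± 0.17 to 36.9 ± 0.13 RPKM. Of 24 other tested Atf4 targets 20 rose and 2 fell (median 0.41). Those at least 2-fold higher were Chac1, a glutathione-degrading enzyme gene (23.02 ± 0.22 to 53.4 ± 0.74 RPKM), the sterol esterifying enzyme gene Soat2 (1.22 ± 0.039 to 4.49 ± 0.23 RPKM) and the small GTPase gene Rab39b (5.76 ± 0.23 to 15.4 ± 0.19 RPKM). The mitochondrial phosphoenolpyruvate carboxykinase gene Pck2, also an Atf4 target, fell (55.8 ± 1.2 to 29.9 ± 0.32 RPKM), and the other member that fell was the death receptor gene Tnfrsf10b (17.2 ± 0.31 to 11.7 ± 0.11 RPKM). Among 20 tested cytosolic aminoacyl-tRNA synthetase genes, 16 rose and 3 fell, none by 2-fold (median 0.28), Rars rising from 153 ± 0.89 to 231 ± 0.10 RPKM.

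Several carriers for uptake of glutamine and other amino acids rose. Of 19 tested neutral amino acid carrier genes 12 rose and 6 fell (median 0.14), 63.2% and 31.6% beside 52.7% and 32.9% over all tested genes, whose median was 0.11, so the list as a whole lay near the background. Slc3a2, the shared heavy chain of several exchangers, was at 58.2, 57.9 and 59.1 RPKM in complete medium and 115, 116 and 117 RPKM without glutamine (log2 change 0.98, SE 0.014, adjusted p = 1.5e-10). The glutamine carrier genes Slc1a5 (27.7 ± 0.31 to 45.7 ± 0.91 RPKM), Slc38a1 (47.7 ± 0.41 to 71.6 ± 0.79 RPKM) and Slc38a2 (80.9 ± 1.7 to 112 ± 0.46 RPKM) rose, and Slc38a4 fell (9.37 ± 0.14 to 5.31 ± 0.14 RPKM). The cystine and glutamate exchanger gene Slc7a11 was at 2.87, 2.87 and 3.03 RPKM in complete medium and 6.85, 6.31 and 6.56 RPKM without glutamine (log2 change 0.95, SE 0.036, adjusted p = 2.0e-08), low in every complete library. Slc7a1, the main carrier of arginine and lysine, rose from 25.2 ± 0.27 to 65.7 ± 0.62 RPKM.

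The enzymes divided. Glul, which makes glutamine, was at 1.15, 1.29 and 1.21 RPKM in complete medium and 2.07, 2.22 and 2.10 RPKM without glutamine (log2 change 0.50, SE 0.043, adjusted p = 4.2e-06), and rose from a level close to the filter. Glud1, which turns glutamate into 2-oxoglutarate, was at 76.1, 75.6 and 77.0 RPKM in complete medium and 51.3, 52.6 and 52.7 RPKM without glutamine (log2 change -0.54, SE 0.016, adjusted p = 4.4e-09), with every glutamine-free library below every complete one. The transaminase genes Got1 (30.0 ± 0.67 to 47.9 ± 0.51 RPKM) and Gpt2 (27.4 ± 0.37 to 41.8 ± 0.51 RPKM) rose, while Got2 was not called (109 ± 1.9 and 108 ± 1.2 RPKM, 95% interval of the log2 change -0.044 to 0.030; called at -0.13 with median centring and at 0.046 with quantile normalization). Among amidotransferases, which take the amide nitrogen of glutamine, Asns (175 ± 1.0 to 238 ± 1.6 RPKM), Gmps (33.6 ± 0.49 to 50.7 ± 0.55 RPKM), Ppat (16.8 ± 0.38 to 24.5 ± 0.29 RPKM) and Ctps (42.3 ± 0.18 to 54.6 ± 0.30 RPKM) rose, and Cad (43.7 ± 0.18 to 36.8 ± 0.49 RPKM) and Ctps2 (9.43 ± 0.090 to 4.79 ± 0.14 RPKM) fell. Over all 23 tested enzymes of glutamine, glutamate, alanine and asparagine 12 rose and 10 fell, none by 2-fold, shares of 52.2% and 43.5% beside 52.7% and 32.9% over all genes.

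Genes of the TCA cycle, where glutamine carbon enters as 2-oxoglutarate, fell in the larger part. Of 33 tested genes of the cycle and its feeding reactions 23 fell and 7 rose (median -0.18). Idh1, the cytosolic NADP-dependent isocitrate dehydrogenase (chr1:65158616-65186500), was at 16.0, 15.8 and 15.6 RPKM in complete medium and 3.16, 2.91 and 3.11 RPKM without glutamine (log2 change -2.05, SE 0.030, adjusted p = 1.8e-10). Slc25a1, which exports citrate from mitochondria, was at 16.6, 17.9 and 17.0 RPKM in complete medium and 7.49, 7.56 and 6.98 RPKM without glutamine (log2 change -1.12, SE 0.036, adjusted p = 7.3e-09). These were the only members of the group to fall at least 2-fold, and their libraries did not overlap. Idh2 (86.7 ± 1.5 to 47.1 ± 0.71 RPKM), Ogdh of the 2-oxoglutarate dehydrogenase complex (24.1 ± 0.40 to 14.6 ± 0.075 RPKM) and the 2-oxoglutarate carrier gene Slc25a11 (33.0 ± 0.61 to 18.8 ± 0.40 RPKM) fell by less. Citrate synthase (Cs) fell from 122 ± 0.28 to 99.8 ± 2.8 RPKM. Of 42 tested nuclear genes for respiratory chain subunits 27 fell and 4 rose, with a median of -0.11.

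**Figure D3:**
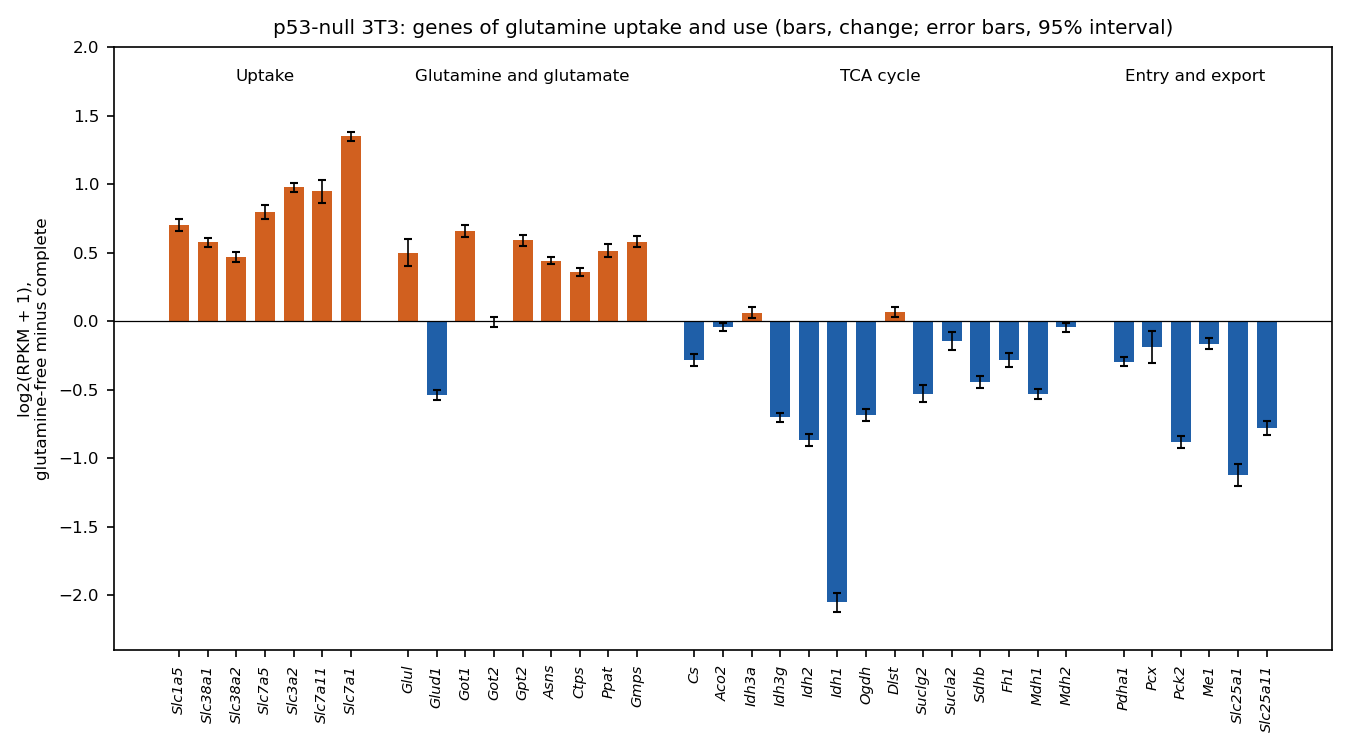
Log2 change without glutamine (bars, glutamine-free minus complete, log2(RPKM + 1)) with the 95% interval from limma. The genes are of uptake, of glutamine and glutamate enzymes, of the TCA cycle and of carbon entry and export. Orange bars were called higher and blue bars lower, and grey bars, Got2 among them, were not called. The uptake genes drawn are a part of those tested, chosen with results known, and all lie above 0. Not drawn are the 6 of 19 tested neutral amino acid carriers that fell. The same holds for 2 of 5 tested cystine, glutamate and aspartate carriers. Glud1 lies at -0.54 among the glutamate enzymes, and Idh1 at -2.05 and Slc25a1 at -1.12 are the lowest bars.

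Serine, proline and polyamine genes moved in both directions, in shares near those of all tested genes. Psat1 (153 ± 1.7 to 214 ± 1.7 RPKM) and Psph (60.7 ± 1.2 to 86.6 ± 0.65 RPKM), which act in the last steps of serine synthesis, Psat1 with an amino group from glutamate, rose, and 10 of 17 tested serine and folate genes rose with 5 lower, 58.8% and 29.4% beside 52.7% and 32.9% over all tested genes. Their median, 0.11, turned sign with median centring (-0.017). In the proline, arginine and polyamine list 11 of 17 rose and 6 fell, 64.7% and 35.3%. Aldh4a1, which breaks proline down toward glutamate, fell from 3.47 ± 0.021 to 1.59 ± 0.14 RPKM.

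Several glutathione transferase genes fell steeply and others by little. Of 30 tested genes listed here as NRF2 targets, genes of the oxidant response, 20 fell and 8 rose (median -0.32), 6 of them falling at least 2-fold beside 2.17% of all tested genes. Whether NRF2 acts on the listed genes, Cyp1b1 included, was not tested. Gsta4, a transferase that clears lipid aldehydes (chr9:78182774-78209349), was at 115, 114 and 115 RPKM in complete medium and 18.0, 17.5 and 18.6 RPKM without glutamine (log2 change -2.60, SE 0.021, adjusted p = 1.9e-11). Gsta1 was at 16.1, 21.95 and 21.1 RPKM in complete medium and 1.09, 1.79 and 1.99 RPKM without glutamine (log2 change -2.99, SE 0.14, adjusted p = 8.5e-08), and reads of it and of its near-identical copy Gsta2 could be shared between them by the counting. The complete libraries were far above the glutamine-free ones in both genes, with more spread in Gsta1. The microsomal transferase gene Mgst1 (31.7 ± 1.5 to 11.2 ± 0.56 RPKM), the cytosolic Gstm1 (18.3 ± 0.74 to 6.66 ± 0.63 RPKM), the cytochrome P450 gene Cyp1b1 (102 ± 0.87 to 41.8 ± 0.65 RPKM) and the quinone reductase gene Nqo1 (4.95 ± 0.18 to 1.66 ± 0.15 RPKM) were the other members that fell at least 2-fold, and Mgst3, outside the list, fell from 16.7 ± 0.88 to 2.78 ± 0.53 RPKM. Other transferase genes of the list fell by less, Gstp1 from 128 ± 2.1 to 105 ± 3.6 RPKM and Gstm5 from 20.9 ± 0.99 to 17.5 ± 0.18 RPKM. Nfe2l2, the gene of NRF2, rose from 17.8 ± 0.39 to 21.1 ± 0.54 RPKM, and its target Hmox1, a heme-degrading enzyme gene, fell slightly (30.5 ± 0.79 to 26.7 ± 0.19 RPKM).

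Genes of sulfur amino acids, metals and selenium moved in both directions. Csad, which makes a taurine precursor from cysteine, was at 6.61, 6.19 and 6.35 RPKM in complete medium and 1.77, 1.81 and 1.88 RPKM without glutamine (log2 change -1.39, SE 0.035, adjusted p = 2.2e-09). The glutathione peroxidase gene Gpx4, which guards lipids against peroxidation, fell from 112 ± 2.8 to 80.1 ± 1.2 RPKM, and Cth, which makes cysteine, rose from 3.42 ± 0.042 to 4.64 ± 0.44 RPKM. Selenop, the gene of a secreted selenium carrier, was at 11.0, 11.9 and 10.7 RPKM in complete medium and 1.97, 2.53 and 2.37 RPKM without glutamine (log2 change -1.89, SE 0.064, adjusted p = 1.0e-08), with every glutamine-free library far below. The zinc exporter gene Slc30a1 was at 1.61, 1.48 and 1.39 RPKM in complete medium and 4.65, 4.72 and 4.70 RPKM without glutamine (log2 change 1.19, SE 0.040, adjusted p = 1.0e-08), higher in every glutamine-free library. Of the metal reductase genes Steap1 rose (41.9 ± 1.5 to 88.7 ± 0.95 RPKM) and Steap3 fell (5.75 ± 0.042 to 1.69 ± 0.073 RPKM). Over 18 tested metallothionein, selenoprotein and iron genes 8 rose and 9 fell.

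Ribosome assembly genes rose while ribosomal protein genes fell. Of 36 tested ribosome biogenesis and RNA polymerase I genes 33 rose and 3 fell (median 0.47). Taf1a, a subunit of the RNA polymerase I initiation factor, was at 4.93, 4.89 and 4.63 RPKM in complete medium and 12.2, 12.9 and 12.4 RPKM without glutamine (log2 change 1.21, SE 0.031, adjusted p = 2.3e-09). Nop14, an assembly factor of the small subunit, was at 47.1, 48.1 and 49.5 RPKM in complete medium and 93.3, 94.3 and 95.9 RPKM without glutamine (log2 change 0.96, SE 0.020, adjusted p = 9.1e-10). Every glutamine-free library was close to 2 times the complete level in Nop14 and above it in Taf1a. The 3 that fell were Npm1 (771 ± 5.7 to 631 ± 5.6 RPKM), which was higher with quantile normalization (0.10), Ncl (132 ± 0.81 to 118 ± 0.57 RPKM) and Polr1c (50.3 ± 0.92 to 48.2 ± 0.16 RPKM). Myc, a driver of this programme, was at 35.9, 38.2 and 37.1 RPKM in complete medium and 112, 114 and 113 RPKM without glutamine (log2 change 1.58, SE 0.022, adjusted p = 1.4e-10), with the 3 glutamine-free libraries at about 3 times the complete ones. By contrast 41 of 51 tested cytosolic ribosomal protein genes fell and 4 rose (median -0.21), with Rpl37a lowest (147 ± 1.9 to 98.2 ± 1.9 RPKM). Processed copies of these genes make single values uncertain. With libraries quantile normalised that median was 0.03, so the direction of the ribosomal protein genes depends on the scaling. Eif6, which holds the large ribosomal subunit apart from the small one, rose from 72.7 ± 1.8 to 130.1 ± 1.1 RPKM, and the kinase gene Eef2k fell from 6.74 ± 0.10 to 3.80 ± 0.079 RPKM.

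Host genes of small nucleolar RNAs, whose spliced transcripts are broken down during translation, held 5 of the 146 genes at least 2-fold higher. That is 5 of 20 tested host genes, beside 1.36% of all tested genes. Snhg1 was at 55.2, 55.8 and 55.9 RPKM in complete medium and 290.0, 286 and 296 RPKM without glutamine (log2 change 2.36, SE 0.015, adjusted p = 8.5e-12). Zfas1 was at 33.1, 33.2 and 31.7 RPKM in complete medium and 144, 149.7 and 146 RPKM without glutamine (log2 change 2.13, SE 0.022, adjusted p = 3.7e-11), and Snhg12 at 16.5, 16.6 and 17.8 RPKM in complete medium and 69.9, 71.0 and 69.4 RPKM without glutamine (log2 change 1.99, SE 0.029, adjusted p = 1.6e-10). In all 3 every glutamine-free library was several times as high as any complete one. Snhg5 (12.3 ± 1.1 to 32.9 ± 0.75 RPKM) and Snhg15 (11.7 ± 0.29 to 29.3 ± 1.6 RPKM) also rose at least 2-fold, whereas Gas5, a long-known member, rose by less, from 41.6 ± 0.13 to 46.8 ± 0.99 RPKM. In all 13 of 20 rose and 6 fell, 65% and 30% beside 52.7% and 32.9% over all tested genes.

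Genes of protein folding and breakdown moved in both directions. Of 22 tested ER chaperone and folding genes 14 rose and 4 fell (63.6% and 18.2%, median 0.23), beside 52.7% and 32.9% over all tested genes. Hspa5, the main ER chaperone, whose promoter with its ER stress element is shown above, was at 202, 201 and 200.2 RPKM in complete medium and 362, 362 and 366 RPKM without glutamine (log2 change 0.85, SE 0.012, adjusted p = 1.3e-10). The co-chaperone gene Dnajb9 was at 4.46, 4.90 and 4.89 RPKM in complete medium and 11.9, 11.8 and 12.5 RPKM without glutamine (log2 change 1.18, SE 0.038, adjusted p = 7.3e-09). Both stood higher in every glutamine-free library, yet Hsp90b1 (208 ± 0.25 and 206 ± 0.37 RPKM) and Pdia4 (67.2 ± 0.49 and 67.4 ± 0.28 RPKM) of the same compartment were not called. The scaling decided their sign: both were called lower with median centring (-0.14 and -0.12), and with quantile normalization Hsp90b1 was called higher (0.086) and Pdia4 lower (-0.040). The genes of the ER stress sensors Ire1 and Atf6 rose, Ern1 from 7.59 ± 0.15 to 17.4 ± 0.11 RPKM and Atf6 from 14.1 ± 0.19 to 26.0 ± 0.38 RPKM. Of 25 tested cytosolic heat shock genes 10 rose and 13 fell (40% and 52%). The small heat shock gene Cryab fell furthest (8.33 ± 0.53 to 1.98 ± 0.25 RPKM) and Hsf2, a heat shock factor gene, rose furthest (11.8 ± 0.37 to 20.5 ± 0.67 RPKM). Proteasome subunits rose in 25 of 33 and fell in 5 (75.8% and 15.2%), by small amounts. Their median, 0.13, lay near the median of all tested genes, 0.11.

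Autophagy genes rose and lysosome genes fell. Autophagy carries cell contents to lysosomes for breakdown to amino acids. Of 28 tested autophagy genes 22 rose and 5 fell (median 0.38). Atg12, which is conjugated to Atg5 to build the membrane, was at 12.8, 11.8 and 12.3 RPKM in complete medium and 24.2, 25.5 and 25.7 RPKM without glutamine (log2 change 0.97, SE 0.033, adjusted p = 1.1e-08). Wipi2, an early membrane-binding protein gene, rose from 24.7 ± 0.23 to 45.9 ± 0.67 RPKM, Gabarapl2, which attaches cargo to the membrane, from 22.2 ± 0.46 to 38.3 ± 8.3 RPKM and the cargo receptor gene Sqstm1 from 319 ± 3.6 to 491 ± 4.2 RPKM. Of 31 tested lysosome genes 25 fell and 4 rose (median -0.38). Ctsa, whose product protects lysosomal glycosidases, was at 93.6, 95.1 and 95.7 RPKM in complete medium and 54.9, 55.5 and 55.8 RPKM without glutamine (log2 change -0.76, SE 0.014, adjusted p = 5.2e-10), all 3 glutamine-free libraries lying below. The sialidase gene Neu1 (13.7 ± 0.23 to 7.04 ± 0.12 RPKM) and the acid lipase gene Lipa (24.1 ± 0.25 to 13.7 ± 0.29 RPKM) fell too. The transcription factor gene Tfe3, which drives lysosome genes, rose (16.7 ± 0.42 to 22.2 ± 0.48 RPKM). Among inhibitors of the growth kinase mTORC1, Sesn2 rose from 8.87 ± 0.095 to 16.3 ± 0.25 RPKM and Sesn1 fell from 4.04 ± 0.11 to 2.63 ± 0.14 RPKM.

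Early-response and ERK feedback genes rose in the larger part, while growth factor genes moved in both directions. AP-1 and small Maf factors rose in 8 of 10 tested and fell in 2 (median 0.88). Besides Fosl1 they were led by Maff (3.64 ± 0.32 to 12.7 ± 0.40 RPKM) and Mafk (6.12 ± 0.17 to 15.3 ± 0.12 RPKM), with Jun from 7.97 ± 0.36 to 16.6 ± 0.50 RPKM and Junb from 9.39 ± 0.66 to 21.0 ± 0.046 RPKM, while Maf fell (4.29 ± 0.28 to 1.45 ± 0.093 RPKM). Egr1, an early-response zinc finger gene, was at 2.91, 2.94 and 2.89 RPKM in complete medium and 9.59, 9.05 and 9.43 RPKM without glutamine (log2 change 1.40, SE 0.030, adjusted p = 9.1e-10). The 22 tested Egr, Ier, Nr4a and Klf genes held 16 that rose and 2 that fell, among them Klf2, at 5.13, 4.77 and 4.69 RPKM in complete medium and 1.32, 0.903 and 1.22 RPKM without glutamine (log2 change -1.45, SE 0.071, adjusted p = 9.1e-08). The libraries of the media did not overlap in Egr1 or Klf2, which moved in opposite directions. Of 20 tested genes that ERK signalling induces and that limit it or report it, 17 rose and 1, Dusp1, fell (median 0.57), a call of Dusp1 that was lost without complete replicate 2 or without glutamine-free replicate 1 (adjusted p = 0.068 and 0.067). Dusp6, an ERK phosphatase gene, was at 12.4, 12.6 and 11.9 RPKM in complete medium and 29.3, 30.8 and 29.9 RPKM without glutamine (log2 change 1.22, SE 0.026, adjusted p = 1.0e-09). Spry2, a Sprouty inhibitor gene, was at 9.66, 10.2 and 10.5 RPKM in complete medium and 26.1, 26.0 and 26.6 RPKM without glutamine (log2 change 1.29, SE 0.029, adjusted p = 1.2e-09), and Etv5, an ETS factor gene downstream of ERK, at 3.93, 4.01 and 3.74 RPKM in complete medium and 12.7, 12.7 and 12.9 RPKM without glutamine (log2 change 1.49, SE 0.029, adjusted p = 5.8e-10). In all 3 genes every glutamine-free library was more than 2 times as high as any complete one. Dusp5, with its pair of CArG boxes, rose from 1.25 ± 0.28 to 4.28 ± 0.45 RPKM. Of 21 tested growth factor genes 10 rose and 11 fell (median -0.14, and 0.023 with no filter), 47.6% and 52.4% beside 52.7% and 32.9% over all tested genes. Ereg (3.65 ± 0.061 to 11.6 ± 0.20 RPKM) and Hbegf (6.93 ± 0.19 to 17.2 ± 0.34 RPKM), both ligands of the EGF receptor, rose at least 2-fold, whereas the lymphatic growth factor gene Vegfd (1.53 ± 0.062 to 0.198 ± 0.0016 RPKM) and Igf2 (26.8 ± 0.28 to 15.5 ± 0.87 RPKM) fell.

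Txnip was not alone in its group. Of 14 tested genes of the arrestin-domain family and of the Max and Mxd factors linked to glucose sensing, 11 rose and 2 fell (median 0.40). Arrdc4, the other standard target of the glucose sensor MondoA, was at 1.58, 1.53 and 1.54 RPKM in complete medium and 4.14, 4.20 and 4.26 RPKM without glutamine (log2 change 1.03, SE 0.033, adjusted p = 7.3e-09), and Mlxip, the gene of MondoA, rose from 6.48 ± 0.022 to 10.1 ± 0.094 RPKM. FoxO and insulin signalling genes rose in 13 of 18 and fell in 4. Gadd45b was at 12.1, 11.6 and 12.7 RPKM in complete medium and 43.1, 44.4 and 43.8 RPKM without glutamine (log2 change 1.77, SE 0.030, adjusted p = 3.0e-10), and the insulin receptor gene Insr rose from 7.21 ± 0.21 to 12.6 ± 0.23 RPKM. YAP and TEAD targets rose in 14 of 21 and fell in 6 (median 0.41), with the matricellular genes Ctgf (23.7 ± 0.66 to 37.9 ± 0.35 RPKM) and Cyr61 (40.8 ± 0.71 to 59.7 ± 2.0 RPKM) and the membrane protein gene Crim1 (17.9 ± 0.042 to 39.0 ± 0.55 RPKM) higher and tissue factor, F3, lower (14.6 ± 0.49 to 5.36 ± 0.17 RPKM).

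**Figure D4:**
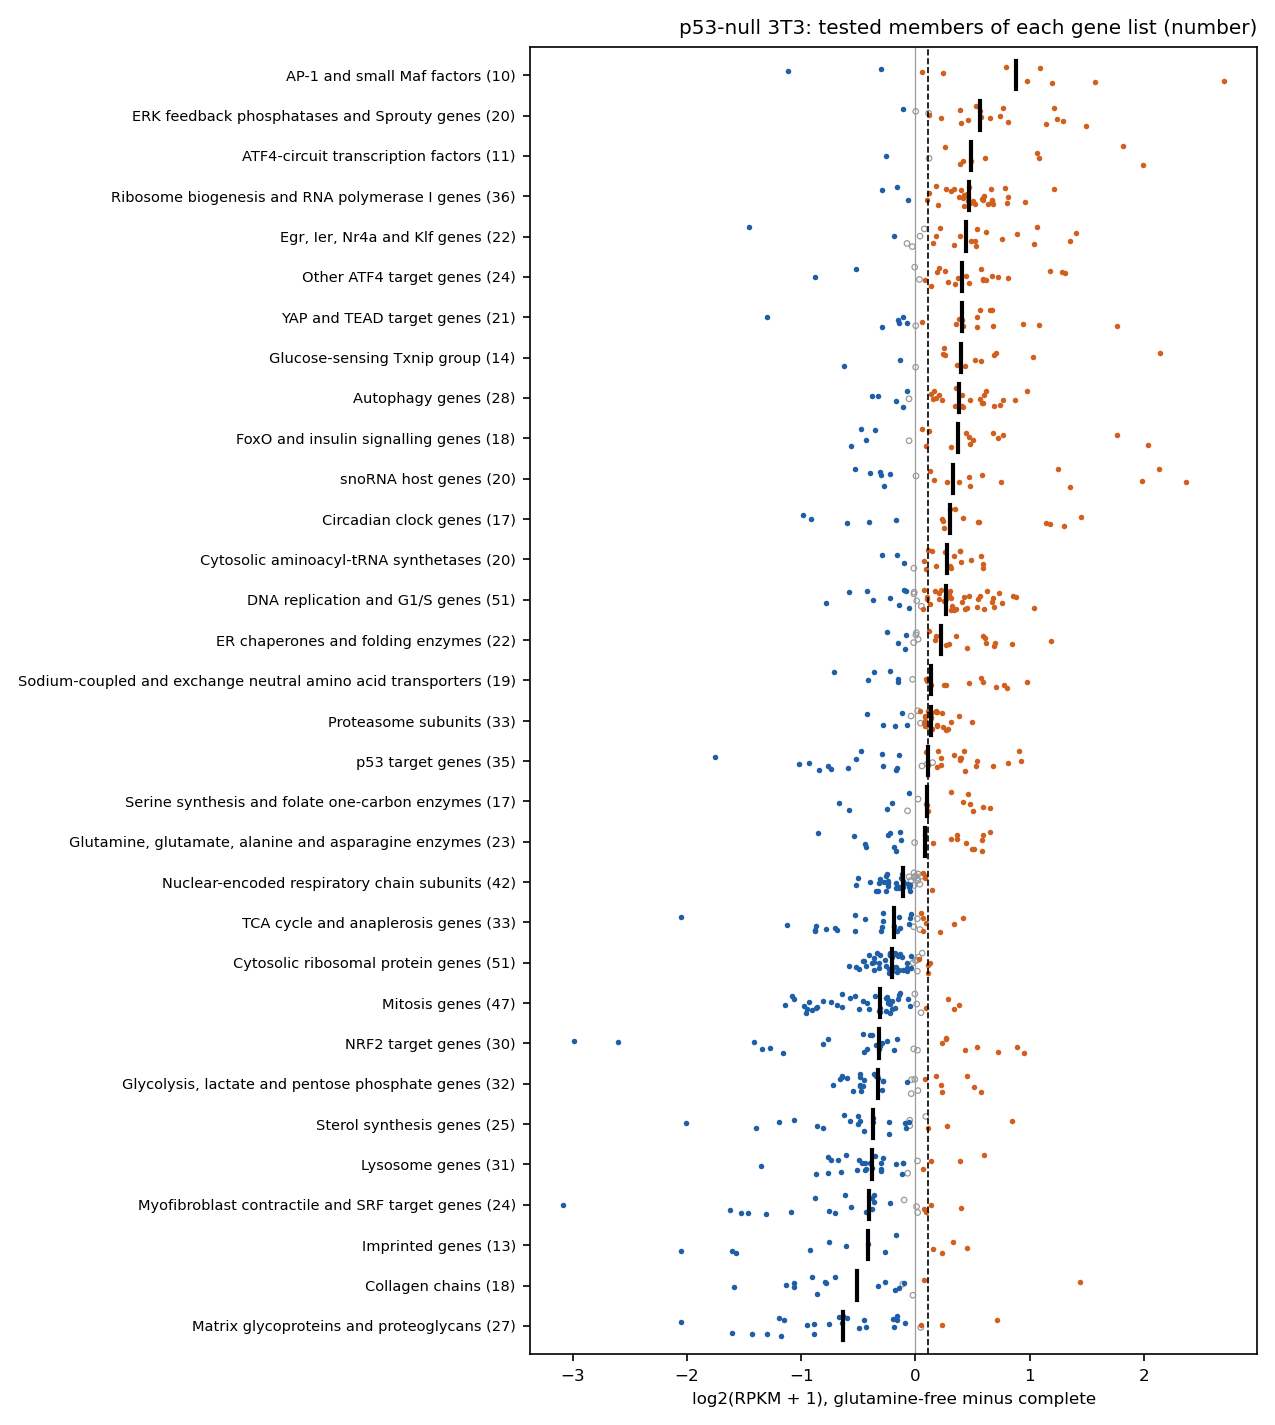
Log2 change without glutamine of every tested member (points) of 32 gene lists, ordered by their median (vertical black bars), with the number tested in brackets; orange points rose, blue points fell and open grey points were not called, and the dashed line marks the median of all tested genes, 0.11. AP-1 and ERK feedback genes lie at the top and collagens and matrix glycoproteins at the bottom.

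Genes of the actin cytoskeleton fell. Of 24 tested contractile and serum response factor targets 17 fell and 4 rose (median -0.41), 6 falling at least 2-fold beside 2.17% of all tested genes. Cytoplasmic gamma actin, Actg1, was at 1228, 1252 and 1252 RPKM in complete medium and 448, 452 and 450.3 RPKM without glutamine (log2 change -1.46, SE 0.012, adjusted p = 1.9e-11). Calponin 2, Cnn2, was at 111, 112 and 111 RPKM in complete medium and 37.2, 37.5 and 39.3 RPKM without glutamine (log2 change -1.53, SE 0.021, adjusted p = 1.4e-10). Both genes carry a CArG box close to the start site, as shown above, and their complete libraries lay far above the glutamine-free ones. Tagln fell from 11.2 ± 0.54 to 2.96 ± 0.21 RPKM, although 67.9% of its exon length lies under exons of the other strand. Srf, the gene of the factor, rose from 11.2 ± 0.22 to 13.1 ± 0.30 RPKM.

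Most collagen and matrix glycoprotein genes fell, and genes of collagen processing moved in both directions. Of 18 tested collagen chain genes 14 fell and 2 rose (median -0.52). Col3a1, a fibrillar collagen of soft tissue, was at 28.2, 28.5 and 29.2 RPKM in complete medium and 8.84, 8.84 and 8.83 RPKM without glutamine (log2 change -1.59, SE 0.020, adjusted p = 8.3e-11), while Col11a2, a minor fibrillar chain, was at 1.01, 0.817 and 0.962 RPKM in complete medium and 4.38, 4.18 and 4.13 RPKM without glutamine (log2 change 1.44, SE 0.048, adjusted p = 8.9e-09). The libraries did not overlap in either, and the directions were opposite. Col1a1 fell from 168 ± 3.3 to 103 ± 2.1 RPKM and Col1a2 from 29.5 ± 0.62 to 12.9 ± 0.29 RPKM. Of 27 matrix glycoprotein and proteoglycan genes 23 fell and 3 rose (median -0.64). The elastic fibre gene Emilin1 (11.6 ± 0.11 to 3.66 ± 0.27 RPKM), the thrombospondin gene Thbs3 (34.6 ± 0.83 to 13.5 ± 0.63 RPKM) and Smoc2 (2.88 ± 0.21 to 0.276 ± 0.042 RPKM) fell at least 2-fold, whereas fibronectin, Fn1, was at 521 ± 7.8 and 538 ± 1.6 RPKM, a change whose sign turned with median centring (-0.08). The summed fibroblast markers include Col1a1 and Col1a2 and were mostly Vim in complete medium. They were lower over the same libraries as given above, and their part in these falls was not tested. Has2, which makes hyaluronan, was at 2.38, 2.17 and 2.06 RPKM in complete medium and 8.09, 7.78 and 7.87 RPKM without glutamine (log2 change 1.48, SE 0.041, adjusted p = 3.4e-09), higher in every glutamine-free library; it was in no list and is named for its difference from WT. Of 20 tested collagen hydroxylase and cross-linking genes 10 fell and 8 rose (median -0.058), and P4ha3, a collagen prolyl hydroxylase gene, fell furthest, from 5.64 ± 0.23 to 0.985 ± 0.16 RPKM. Of 18 tested matrix proteases and inhibitors 12 fell and 4 rose. Plat, the tissue plasminogen activator gene, fell from 14.4 ± 0.071 to 6.95 ± 0.17 RPKM.

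The Id genes, direct targets of BMP signalling, fell together. Id1 was at 24.7, 25.7 and 25.9 RPKM in complete medium and 6.23, 6.03 and 5.70 RPKM without glutamine (log2 change -1.92, SE 0.032, adjusted p = 2.8e-10). Id3 was at 28.7, 29.3 and 29.3 RPKM in complete medium and 7.25, 7.26 and 7.70 RPKM without glutamine (log2 change -1.84, SE 0.026, adjusted p = 1.4e-10), and Id2 fell from 1.86 ± 0.34 to 0.285 ± 0.060 RPKM. Every complete library was above every glutamine-free one in the 3 genes. Smad7, an inhibitor of TGF-beta signalling, rose from 4.20 ± 0.052 to 6.76 ± 0.094 RPKM. Over the 28 tested TGF-beta, BMP and Id genes 14 fell and 11 rose. Of 15 tested chemokine and inflammatory genes 6 rose and 8 fell (median -0.18, and 0.089 among genes with a mean of at least 5 RPKM). At least a 2-fold fall was called for 5 of the 15, beside 2.17% of all tested genes. A further 17 of the 32 found lay below the filter. Ccl2, which attracts monocytes, was at 14.3, 12.8 and 14.1 RPKM in complete medium and 1.52, 1.33 and 1.43 RPKM without glutamine (log2 change -2.61, SE 0.047, adjusted p = 4.1e-10), and its neighbour Ccl7 at 6.66, 6.78 and 6.05 RPKM in complete medium and 0.222, 0.327 and 0.525 RPKM without glutamine (log2 change -2.47, SE 0.078, adjusted p = 7.2e-09). The complement gene C1s1 fell from 12.7 ± 0.24 to 2.03 ± 0.14 RPKM and Cxcl12 from 112 ± 0.80 to 67.4 ± 0.23 RPKM, while Ptgs2, a prostaglandin synthase gene, rose from 10.3 ± 0.14 to 24.1 ± 0.53 RPKM.

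Most mitosis genes fell and most replication genes rose. Of 47 tested mitosis genes 40 fell and 4 rose (median -0.31). Ccnf, a cyclin of G2, was at 27.2, 27.5 and 27.0 RPKM in complete medium and 11.4, 12.1 and 11.8 RPKM without glutamine (log2 change -1.14, SE 0.023, adjusted p = 7.0e-10). Aspm, a spindle pole gene, was at 14.1, 14.1 and 14.3 RPKM in complete medium and 6.20, 6.21 and 6.12 RPKM without glutamine (log2 change -1.08, SE 0.021, adjusted p = 6.7e-10), and Cdc20, which activates the anaphase ubiquitin ligase, at 26.8, 26.0 and 26.2 RPKM in complete medium and 13.2, 12.9 and 13.2 RPKM without glutamine (log2 change -0.96, SE 0.020, adjusted p = 8.5e-10). Every glutamine-free library lay near 50% of the complete level or below it in these 3 genes, without overlap. Plk1, a kinase of mitosis, fell from 25.8 ± 0.86 to 13.3 ± 0.17 RPKM. Of 51 tested replication and G1/S genes 38 rose and 9 fell (median 0.27). Mcm10, needed to start replication, was at 22.9, 23.2 and 22.7 RPKM in complete medium and 47.3, 48.1 and 48.6 RPKM without glutamine (log2 change 1.03, SE 0.017, adjusted p = 2.8e-10), higher in every glutamine-free library. Pold1, the catalytic subunit of a replicative polymerase, fell (21.1 ± 0.22 to 11.8 ± 0.30 RPKM), as did the cyclin E gene Ccne1 (17.3 ± 0.80 to 13.2 ± 0.26 RPKM). Cyclin D genes Ccnd1 (91.8 ± 1.6 to 116 ± 1.0 RPKM) and Ccnd2 (64.7 ± 0.48 to 98.8 ± 0.46 RPKM) rose and the inhibitor genes Cdkn2a (82.9 ± 1.3 to 51.6 ± 1.4 RPKM) and Cdkn1b (22.5 ± 1.0 to 14.1 ± 0.51 RPKM) fell.

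Known p53 targets, read here in cells labelled p53 -/-, moved in both directions: of 35 tested 18 rose and 14 fell (median 0.11), 51.4% and 40.0% beside 52.7% and 32.9% over all tested genes. Cdkn1a, the cell cycle inhibitor most used as a p53 readout, was at 1.19, 0.712 and 1.02 RPKM in complete medium and 1.72, 1.77 and 2.03 RPKM without glutamine (log2 change 0.53, SE 0.087, adjusted p = 3.6e-04), near the filter in every library. The kinase gene Plk2 rose from 52.8 ± 0.73 to 101 ± 2.1 RPKM, whereas the pro-apoptotic Bax fell from 52.9 ± 0.61 to 34.8 ± 0.44 RPKM and Pltp, a lipid transfer protein gene, from 10.9 ± 0.36 to 2.53 ± 0.14 RPKM. Among BCL2 family genes the largest change was of Bcl2l11, which encodes the pro-apoptotic Bim, at 2.04, 2.14 and 2.05 RPKM in complete medium and 5.12, 5.46 and 5.05 RPKM without glutamine (log2 change 1.01, SE 0.037, adjusted p = 1.5e-08), higher in all 3 glutamine-free libraries. The survival gene Mcl1 rose from 37.0 ± 0.56 to 50.2 ± 0.20 RPKM.

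Most sterol genes fell. Of 25 tested 19 fell and 3 rose (median -0.37). Srebf2, the factor that induces the pathway, was at 27.7, 28.9 and 29.0 RPKM in complete medium and 15.7, 16.2 and 15.5 RPKM without glutamine (log2 change -0.81, SE 0.025, adjusted p = 5.3e-09), with every glutamine-free library far below every complete one. In fatty acid synthesis the desaturase gene Scd2 fell from 207 ± 0.63 to 85.1 ± 0.51 RPKM, the droplet coat gene Plin4 from 3.71 ± 0.091 to 0.426 ± 0.016 RPKM and Fasn, the synthase itself, by less (53.7 ± 0.086 to 47.7 ± 0.34 RPKM). Of 32 tested glycolysis, lactate and pentose phosphate genes 21 fell, none by 2-fold, among them Hk1 (21.7 ± 0.46 to 12.8 ± 0.48 RPKM), and 7 rose, among them Hk2 (15.5 ± 0.29 to 21.6 ± 0.39 RPKM).

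Of 17 tested circadian clock genes 12 rose and 5 fell, 70.6% and 29.4% beside 52.7% and 32.9% over all tested genes. At least a 2-fold rise was called for 4 of them, beside 1.36% of all tested genes. Nr1d1, a repressor in the clock, was at 4.71, 4.92 and 4.79 RPKM in complete medium and 13.2, 13.0 and 13.8 RPKM without glutamine (log2 change 1.30, SE 0.030, adjusted p = 1.2e-09), and Arntl, the gene of Bmal1, at 2.65, 2.81 and 2.61 RPKM in complete medium and 6.90, 7.27 and 7.28 RPKM without glutamine (log2 change 1.14, SE 0.035, adjusted p = 5.4e-09). Both were higher in every glutamine-free library, and Bhlhe40, a repressor of clock genes, fell (19.6 ± 0.58 to 9.93 ± 0.31 RPKM). The media were sampled at 1 time, so phase cannot be read. Among 13 tested imprinted genes 9 fell and 4 rose, with Peg3 at 129, 127 and 128 RPKM in complete medium and 41.3, 41.7 and 40.8 RPKM without glutamine (log2 change -1.61, SE 0.014, adjusted p = 2.1e-11) and Peg10 from 9.23 ± 0.067 to 2.44 ± 0.15 RPKM.

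The p53-null response differed from that of the WT line for most genes, in size or in direction. The test of the difference (p53-null minus WT response, limma on 12 libraries) called 9727 of 11461 genes, 84.9%, 5323 with the p53-null change higher (46.4%) and 4404 lower (38.4%), and the difference was at least 2-fold above 0 for 9.98% and below 0 for 5.58% of genes. Over the genes tested in the p53-null line the median absolute log2 change was 0.28 there and 0.49 in WT. Of 8348 genes called in both lines, 6385 (76.5%) moved in the same direction, and of the 378 genes changed at least 2-fold in the p53-null line 313 moved the same way in WT, 24 the opposite way and 41 were not called there. In the amino acid response the rises were smaller in the p53-null line for Trib3 and Atf3. The log2 change of Trib3 was 1.06 against 4.29 in WT (difference -3.23, adjusted p = 5.8e-13) and that of Atf3 1.81 against 4.14 (difference -2.33, adjusted p = 1.3e-14). Trib3 was already at 45.1 RPKM in complete medium in the p53-null line, against 4.69 in WT. Of the Atf4-circuit genes tested for the difference 7 of 11 were lower in the p53-null response and 2 higher, and of the ribosome biogenesis genes 34 of 36 were lower. For mitosis genes, 46 of 47 had a higher, that is less negative, change in the p53-null line, and for sterol genes 25 of 26.

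A smaller number of genes moved in opposite directions, 100 of them by at least 0.5 on the log2 scale in both lines and 5 by at least 1. Txnip rose in the p53-null line and fell in WT, from 36.5 to 18.0 RPKM (difference 3.12, SE 0.039, adjusted p = 2.7e-15). Egr1 changed by 1.40 against -1.14 (difference 2.55, adjusted p = 1.2e-13) and Dusp6 by 1.22 against -0.81 (difference 2.02, adjusted p = 8.7e-13). Both are early genes of growth factor signalling, and the ERK feedback genes as a list had a median of 0.57 in the p53-null line and -0.28 in WT, 17 of 21 being higher by the test of the difference and 4 lower. Has2 changed by 1.48 against -2.05 (difference 3.52, adjusted p = 7.2e-15). Ftl1, the abundant ferritin light chain, changed by -0.87 in the p53-null line and by 0.90 in WT (difference -1.76, adjusted p = 5.5e-15), with 26.5% of its exon length under the other strand. Tspan8 and Cxcl15, which fell in the p53-null line, had WT changes of 0.007 and -0.011, from WT levels of 0 and 0.0158 RPKM in complete medium. Likewise, 12 of 21 tested Hox genes lay under 0.1 RPKM in both WT groups and at 1.07 to 16.4 RPKM in the p53-null line in complete medium. The 21 had passed the filter on the p53-null libraries, so a Hox gene read only in WT could not be among them. A further 9 of the 30 listed Hox genes lay below that filter.

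**Figure D5:**
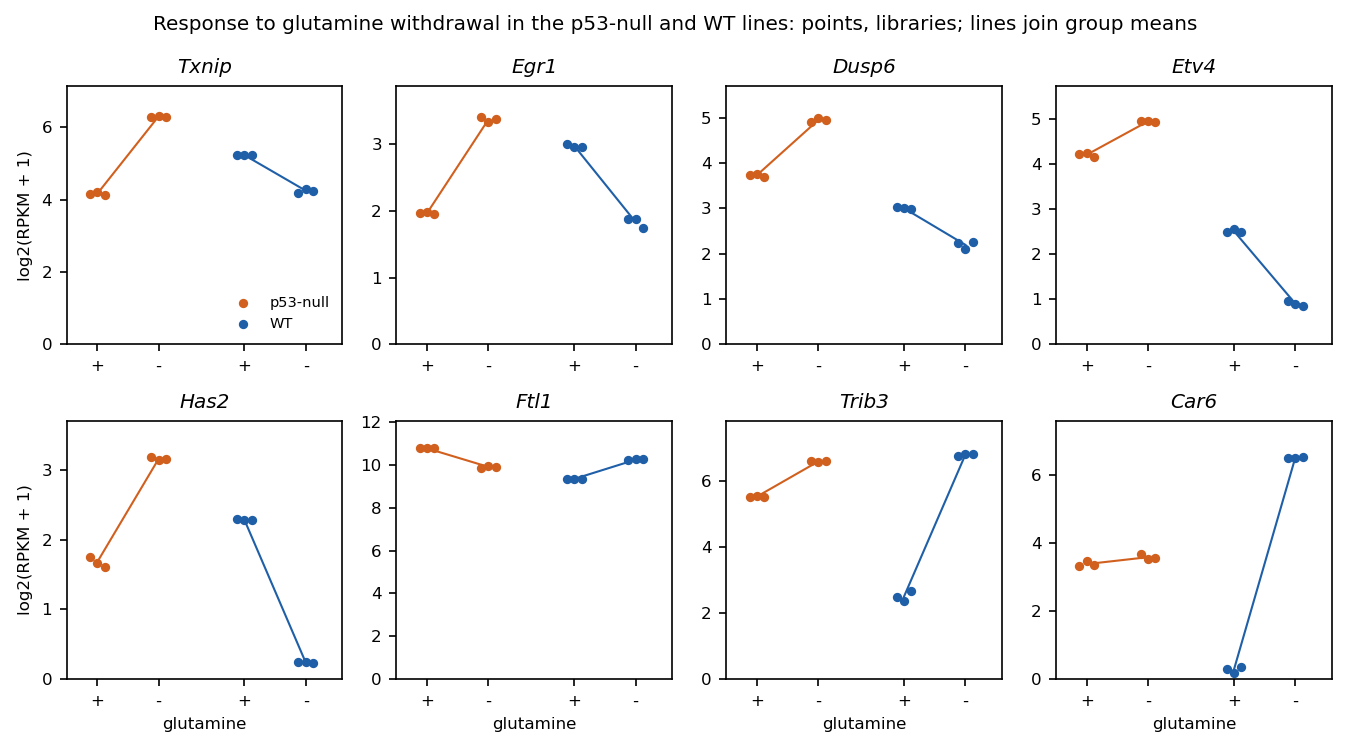
Log2(RPKM + 1) of 8 genes in complete (+) and glutamine-free (-) medium in the p53-null line (orange) and the WT line (blue); points are libraries and lines join group means. Txnip, Egr1, Dusp6, Etv4 and Has2 rise in the p53-null line and fall in WT, Ftl1 does the reverse, Trib3 rises in both with a larger change in WT, and Car6 rises by 6.22 in WT and lies close to level in the p53-null line.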

How the data were processed

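RNA-seq was read from 12 libraries, of which 6 from the p53-null line entered the main comparison. The authors deposited RPKM per gene. The submitters' processing notes name CASAVA 1.8, HISAT2 2.0.4, Partek and the mm10 build, and how reads were counted is not stated there. After transformation to log2(RPKM + 1), genes that reached 1 RPKM in 3 or more of the 6 libraries were fitted with limma 3.58.1 (R 4.3.3, moderated test with a mean-variance trend, Benjamini-Hochberg adjustment over all tested genes). A gene was called at an adjusted p under 0.05. The difference from WT was a contrast over all 12 libraries, with the same filter there. Depth per library is not stated. A depth was sought for each library from values below 0.5 RPKM in protein-coding genes with 1 annotated transcript. At the depth that fitted best, 52.6 to 56.1% of these values lay within 0.05 of a whole read, so reads were not recovered. Gene positions and exon overlaps came from GENCODE M21 (GRCm38) and promoters from RefSeq. On simulated data the fit of the p53-null comparison (10705 genes) recovered 86.6% of genes changed 1.2-fold, 98.5% at 1.5-fold and 100% at 2-fold, with 8 calls among 10505 unchanged genes. The simulation changed 67, 67 and 66 genes at these folds, with independent noise in each gene and no shift of whole libraries. In the data 85.5% of genes were called, so the simulation does not measure how many small changes come from scaling. Alternatives were another pseudocount, filters, scalings, no trend, a replicate block, all 12 libraries in 1 fit, and leaving out each library.

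Members and lists were chosen with earlier results of these data known. Named genes were Trp53 and Slc7a3, the 12 largest rises and falls (mean of at least 2 RPKM in the higher medium, no overlap), up to 4 of the most changed members of each list, a core set per list, and the 6 largest differences from WT in each direction. Entries with predicted, clone, date-like or repeated names, small RNAs, pseudogenes and names beginning with Rn were left out of the rankings of rises, falls and differences. Some genes that the rule names are not reported here. Outside that rule, and chosen after their values were seen, are Ccdc85b, Cdc20, Csrnp1, Cyp1b1, Etv4, Fap, Ftl1, Got2, Gstm5, Gstp1, Idh2, Ncl, Npm1, Polr1c, Slc25a11, Snhg15, Srf, Tnfrsf10b and Wt1.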

Additional observations from a re-analysis of the deposited data

Results flagged for a closer look

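All the genes below stand out because the test of the difference (p53-null response minus WT response, log2 scale, limma over 12 libraries, adjusted p below the threshold in each) separated the lines. The first 12 were the largest differences in either direction among genes called in the p53-null line, with the names left out above. The rest moved in opposite directions in the lines.
Differences below 0, where the p53-null change was the smaller or the more negative, were led by Car6, a carbonic anhydrase gene, at -6.01: it was at 9.39 and 11.0 RPKM in complete and glutamine-free medium in the p53-null line and at 0.211 and 89.0 RPKM in WT. Avil, an actin-binding gene, differed by -5.8 (9.18 to 10.2 RPKM in the p53-null line, 0.161 to 70.0 in WT), Cdsn, a cell adhesion gene of the skin, by -4.32 (51.4 to 61.7 RPKM and 3.33 to 103) and Angptl6 by -3.78 (7.04 to 8.16 RPKM and 1.36 to 35.9). The stress response genes Trib3 and Atf5 differed by -3.23 and -3.11, Atf5 at 65.3 to 78.2 RPKM in the p53-null line and 8.12 to 93.1 in WT.
Differences above 0 were led by the collagen gene Col1a1 at 3.63, which fell in both lines, from 168 to 103 RPKM in the p53-null line and from 240.2 to 11.0 in WT. Has2 differed by 3.52 and Cebpd by 3.49 (1.22 to 0.853 RPKM in the p53-null line, 31.9 to 1.45 in WT). The matrix calcification inhibitor gene Mgp differed by 3.46 (1.40 to 0.0487 RPKM, 61.1 to 1.498 in WT). On the log2(RPKM + 1) scale the fall of Mgp in the p53-null line is understated, because its values there lie near or under 1 RPKM. Much of the difference given for Mgp therefore depends on the added 1. Col11a1 differed by 3.15 (9.28 to 3.92 RPKM, 25.4 to 0.426 in WT) and Txnip by 3.12.
Among early-response genes that moved in opposite directions, Egr1 differed by 2.55, Etv4 by 2.35 (17.4 to 29.7 RPKM in the p53-null line, 4.69 to 0.871 in WT), Dusp6 by 2.02 and Csrnp1 by 1.52 (1.39 to 3.03 RPKM, 2.41 to 1.01 in WT). Ftl1, of iron storage, differed by -1.76.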

How the results depend on the processing

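Counts of genes called at an adjusted p under 0.05 stayed within 1.5 times their value under every alternative run, and the counts at 2-fold moved with pseudocount, filter and scaling. In the p53-null line the 146 genes at least 2-fold higher became 264 with a pseudocount of 0.1 and 90 with median centring, and the 232 at least 2-fold lower became 407 with a pseudocount of 0.1 and 128 with a mean of at least 5 RPKM. The 1144 genes whose difference between lines was at least 2-fold above 0 became 723 with the last filter. Leaving out 1 library at a time gave 5503 to 5607 genes higher, 3393 to 3464 lower, 144 to 153 at least 2-fold higher and 229 to 237 at least 2-fold lower, and for the difference 5236 to 5294, 4313 to 4408, 1129 to 1158 and 626 to 644. With a replicate block the p53-null counts were 5623, 3508, 146 and 232 and the difference counts 5329, 4404, 1143 and 639. The correlations of deviations between same-numbered libraries were 0.027, 0.070 and -0.041, so the numbers were not taken to pair the libraries. Alternatives were run for the 46 lists whose rises and falls are counted in the text, and of their medians 45 moved by more than the spread between libraries under at least 1 alternative (162 of 689 values, 41 of them with median centring and 39 with quantile normalization), and 9 turned sign. With median centring these were glutamine, glutamate, alanine and asparagine enzymes (-0.038), serine and folate enzymes (-0.017), p53 targets (-0.0088), hypoxia response genes (-0.060) and mitochondrial ribosomal protein genes (-0.034, and -0.037 with quantile normalization), and with quantile normalization cytosolic ribosomal protein genes (0.027). With a mean of at least 5 RPKM they were metallothionein, selenoprotein and iron genes (0.034) and chemokine and inflammatory genes (0.089), and with no filter growth factor genes (0.023). Of 204 named genes 8 turned sign: with quantile normalization Eif2ak1 (-0.029), Eif2ak2 (-0.068), Got2 (0.046), Hsp90b1 (0.086), Npm1 (0.10), Pdia4 (-0.040) and Rn45s (0.097), and with median centring Eif2ak2 (-0.047), Fn1 (-0.076) and Pdia4 (-0.12). Calls were lost with quantile normalization for Angptl6 (adjusted p = 0.075), Avil (0.24), Car6 (0.11), Dusp1 (0.092), Eef1a1 (0.21), Eif2ak1 (0.20) and Rn45s (0.21), and with median centring for Angptl6 (0.20), Avil (0.59), Car6 (0.15), Eif2ak1 (0.70) and Eif2ak2 (0.068). That of Fn1 was lost without the mean-variance trend (adjusted p = 0.053), that of Polr1c with libraries rescaled to 1 sum (0.064) and in the fit of all 12 libraries (0.054), and that of Dusp1 without 1 of 2 libraries (0.067 and 0.068). The cause of these changes was not tested. The count tests planned for recovered reads were not run because whole reads could not be recovered. Depth per library is not stated and its estimate left many values off whole reads, so no counting interval is given for low values.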

Other observations

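Gene groups not described above gave the following values in the p53-null line. Of 42 tested mitochondrial ribosomal protein genes 22 rose and 14 fell, 52.4% and 33.3%, near the 52.7% and 32.9% over all tested genes. Of 17 mitochondrial aminoacyl-tRNA synthetase genes 7 rose and 7 fell (41.2% each). Of 19 tested hypoxia response genes 9 rose and 6 fell (47.4% and 31.6%). Of 16 interferon response genes 6 rose and 8 fell (37.5% and 50%), with 21 of the 37 listed interferon genes below the filter. Of 30 tested genes for nucleotide synthesis 18 rose (60%), and 11 were lower (36.7%). Of 4 tested replication-dependent histone genes, whose RNAs mostly lack the poly(A) tail that many library kits select, 3 fell and 1 rose.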
